A study of Mus musculus with 2 samples.

Results

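The RAS-RAF-MEK-ERK core was followed here through 7 genes, namely Hras and Nras (RAS), Araf and Braf (RAF), Map2k1 and Map2k2 (MEK) and Mapk3 (ERK). They were taken by name from the 21911 genes listed by Ensembl identifier, after symbols had been assigned, and all 7 were found. Other paralogs that belong to these tiers were not analysed here. RNA came from 4T1, a mouse mammary carcinoma cell line, with 1 library of cells kept for 48 h with PBS and 1 of cells kept for 48 h with potassium oxalate. The dose of oxalate is 20 µM in the paper and in the treatment label, whereas the protocol label gives 20 mM. The labels name no genetic change for either culture and give 5000000 cells for the treatment, and the study compared them to ask which genes respond to oxalate in breast cancer cells. With 1 library per condition no test of the treatment was possible, and no difference has a replicate check.

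RAS proteins are small GTPases at the inner face of the cell membrane that switch on when growth factor receptors recruit an exchange factor. GTP-bound RAS brings RAF kinases to the membrane, RAF phosphorylates MEK, and MEK phosphorylates ERK, which then acts on kinases and transcription factors in the cytoplasm and nucleus. The signal travels by phosphorylation, which RNA levels do not measure. In epithelial tumors, the mammary gland included, the cascade is known for driving proliferation.

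The authors deposited FPKM values (fragments per kilobase, corrected for how many fragments each library had mapped), so that levels of different genes can be set side by side per length. Depth was estimated from the steps of low values at about 56700000 reads for PBS and 36500000 reads for oxalate. All 7 epithelial markers examined, among them Epcam and Krt8, were above 1 FPKM in both libraries, with summed levels of 2232 FPKM for PBS and 2307 FPKM for oxalate. The haematopoietic list summed to 7.89 and 7.17 FPKM, nearly all of it Cd68, with Ptprc and Cd3e listed at 0 in both libraries. The endothelial list summed to 0.08 and 0.09 FPKM. The fibroblast list summed to 145.67 and 146.87 FPKM, of which Col1a1 made up 143.48 and 144.61 FPKM. In RNA of a whole culture, fewer cells with a transcript and less of it per cell cannot be told apart.

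The 2 paralogs of a tier encode related proteins, so the coding sequences were aligned to see how far short reads could separate them. Across the aligned coding bases, Map2k1 and Map2k2 were identical at 78.4%, Hras and Nras at 75.9% and Araf and Braf at 67.6%. Stretches of 50 bases shared without a mismatch numbered 7 between the MEK coding sequences and 0 in each of the other pairs. The most alike stretch of 90 coding bases within 1 exon is shown for the most and the least similar pair, since the levels of these paralogs are compared throughout. Capitals mark bases at which the paralogs differ. The MEK stretches lie in exon 3 of both genes, at chr9:64212608-64212697 on the minus strand for Map2k1 and chr10:81115059-81115148 on the plus strand for Map2k2 (GRCm38, transcripts of GENCODE M21). They differed at 4 bases, all at the third base of a codon, and encode the same 30 residues.
Map2k1: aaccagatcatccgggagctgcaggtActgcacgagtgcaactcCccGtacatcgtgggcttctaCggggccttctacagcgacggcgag
Map2k2: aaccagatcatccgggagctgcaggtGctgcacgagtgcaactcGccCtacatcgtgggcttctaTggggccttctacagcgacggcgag

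The RAF stretches lie in exon 5 of Araf at chrX:20851673-20851762 on the plus strand, and in exon 7 of Braf at chr6:39662048-39662137 on the minus strand. They differed at 22 of 90 bases, and 5 of the 30 encoded residues differed.
Araf: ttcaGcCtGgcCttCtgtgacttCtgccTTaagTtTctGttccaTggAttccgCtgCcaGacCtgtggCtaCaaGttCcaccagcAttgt
Braf: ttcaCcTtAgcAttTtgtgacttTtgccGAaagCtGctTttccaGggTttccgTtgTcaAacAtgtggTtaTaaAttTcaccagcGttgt

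Over whole coding transcripts, the share of 50-base stretches also present in a transcript of another gene was 0% for Hras and Araf, 0.0476% for Mapk3, 0.160% for Map2k2, 0.293% for Map2k1, 0.783% for Nras and 0.977% for Braf. The Braf stretches were shared with Ndufb2, which overlaps Braf by 146 bases on the opposite strand and had 2.25 FPKM in the PBS and 2.31 FPKM in the oxalate library. Map2k1 overlaps Uchl4 on the opposite strand (1.85 and 1.75 FPKM), and Araf overlaps Syn1 by 9 bases (0.62 and 0.58 FPKM). Unlike Braf with Ndufb2, Map2k1 shared no 50-base stretch with Uchl4, as its 7 shared stretches were all with Map2k2. Strand is not stated for these libraries, and the values of the overlapping genes were below those of the cascade gene in each case. Small RNA, pseudogene and lincRNA genes for which no value was used here also lie within Araf (Gm26065, Gm15028 and Gm24824), Braf (Fth-ps2) and Map2k1 (Gm24106 and Gm48855). The annotation names a processed pseudogene for 1 of the 7 genes, Nras-ps2 on chromosome 1.

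All 7 genes were transcribed in both libraries, and none differed between them by as much as 1.2-fold. Their levels spanned 31.4-fold with PBS and 29.4-fold with oxalate, from Braf at the bottom to Nras at the top. With oxalate 4 genes were higher (Hras, Araf, Braf and Mapk3) and 3 were lower (Nras, Map2k1 and Map2k2). The change, log2((oxalate + 1)/(PBS + 1)), ran from -0.10 for Map2k2 to 0.18 for Mapk3, with a median of 0.036. Expressed genes, by which are meant the 10267 genes whose mean over both libraries reached 1 FPKM, had a median of 0.0031. Of them 50.6% were higher with oxalate, and the central 90% of their values ran from -0.27 to 0.26. The pseudocount of 1 understates the change of low genes, which touches Braf among the cascade genes.

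**Figure D1:**
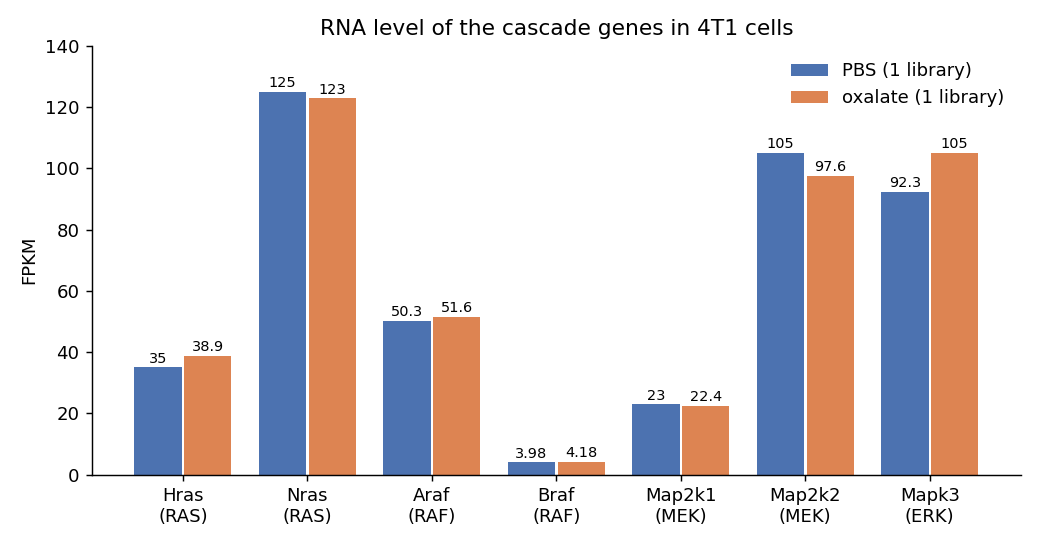
Bars give the deposited FPKM (vertical axis, from 0) of each cascade gene in the PBS library and the oxalate library, 1 library each and so without error bars. Nras, Map2k2 and Mapk3 stand at or above 92.3 FPKM in both libraries, while Braf stays near 4 FPKM.

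Among the 7 genes, 0 were raised and 0 were lowered at 2-fold, 1.5-fold or 1.2-fold. Of the expressed genes, 4.75% were raised and 5.19% lowered at least 1.2-fold. At 1.5-fold these shares were 0.935% and 1.05%, and at 2-fold 0.292% and 0.36%. With 90.1% of expressed genes within 1.2-fold, a group of 7 genes without a change of that size is close to the background. Counting error was smaller than these differences for part of the genes. The exact 95% interval of the ratio of estimated reads (Clopper-Pearson, for counting error alone) left out no change for Hras and Mapk3 on the higher side and for Map2k2 on the lower side. Over the 10261 expressed genes with a known length, the interval left out no change on the higher side for 24.9% and on the lower side for 23.8%, so that 2 and 1 of 7 genes are near the background as well.

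**Figure D2:**
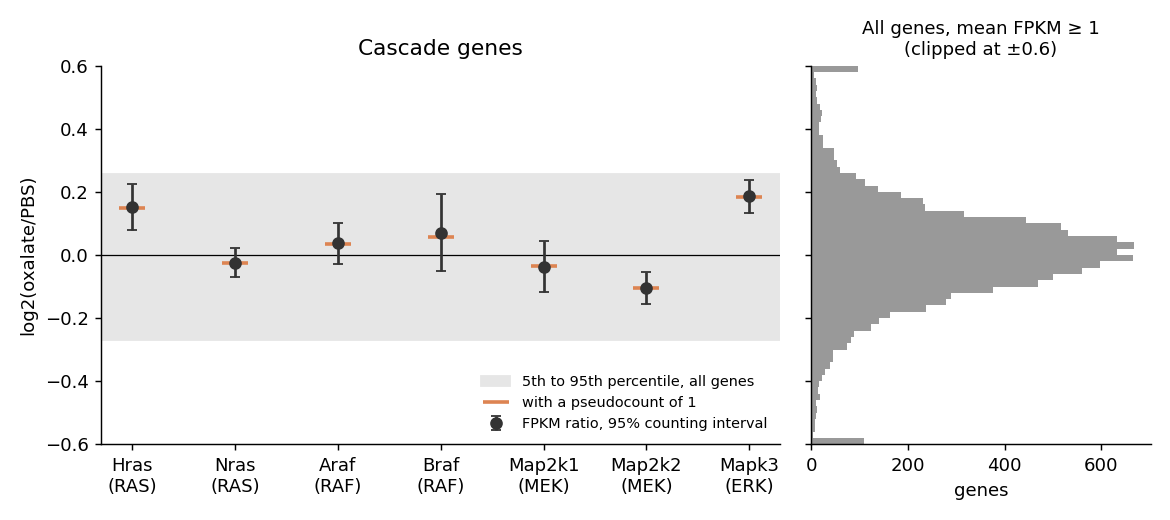
Left, log2 of oxalate over PBS for each cascade gene, as the FPKM ratio with its 95% counting interval (points and bars) and with a pseudocount of 1 (dashes), where grey marks the central 90% of expressed genes. Right, the number of genes at each change over 10267 genes. All 7 points, from -0.11 to 0.19, lie inside the grey band, which was computed with the pseudocount. The bars of Hras, Map2k2 and Mapk3 do not cross 0. For the 4566 genes whose mean reached 20 FPKM the central 90% was narrower, from -0.219 to 0.185, and the ratio of Mapk3 was 0.186.

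Hras and Nras encode GTPases that share the switch part of the protein and differ in the tail that takes lipid anchors. Hras (ENSMUSG00000025499, GRCm38 chromosome 7, 141189105 to 141194005, minus strand) had 34.98 FPKM with PBS and 38.87 FPKM with oxalate. Its log2 change was 0.15, and the counting interval of the ratio ran from 0.079 to 0.23 on 3653 and 2615 estimated reads. Of the expressed genes, 27.9% had a larger change in either direction.

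Nras (ENSMUSG00000027852, chromosome 3, 103058285 to 103067914, plus strand) was the highest of the 7 genes in the deposited values, with 124.95 FPKM for PBS and 122.88 FPKM for oxalate. The log2 change was -0.024 with a counting interval from -0.070 to 0.022, a range that holds 0, and at this depth no difference could be detected. Nras held 78.1% of the summed FPKM of the 2 RAS genes with PBS (counting interval 77.5% to 78.8%) and 76.0% with oxalate (75.1% to 76.8%). The intervals of the 2 libraries do not overlap, nor do those of the changes of Hras and Nras. They hold counting error alone, however. Such intervals of the change left out no change for 24.9% of expressed genes on the higher side and 23.8% on the lower side. How often the share of a pair differs in this way between replicate libraries is unknown. Per length, Nras was 3.57-fold above Hras with PBS and 3.16-fold above it with oxalate.

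Araf and Braf encode kinases that bind GTP-loaded RAS and phosphorylate MEK, and B-Raf is known as the more active kinase of the pair. Araf (ENSMUSG00000001127, chromosome X, 20797814 to 20860519, plus strand) had 50.26 FPKM with PBS and 51.56 FPKM with oxalate. Its change of 0.036 on the log2 scale had a counting interval from -0.029 to 0.10. Braf (ENSMUSG00000002413, chromosome 6, 39603237 to 39725463, minus strand) had 3.98 FPKM with PBS and 4.18 FPKM with oxalate, the lowest level among the 7 genes in both libraries. Its log2 change was 0.057 with the pseudocount and 0.071 without it, with an interval from -0.052 to 0.19 on 1351 and 914 estimated reads. No difference between the libraries was detectable for either RAF gene at this depth.

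This was the most uneven pair. Araf held 92.7% of the summed FPKM of Araf and Braf with PBS (92.2% to 93.1%) and 92.5% with oxalate (92.0% to 93.0%), and these intervals overlap. The level of Araf was 12.6-fold above that of Braf with PBS and 12.3-fold above it with oxalate. The ratio depends on the length used, and the coding transcripts of Braf average 5990.5 bases and those of Araf 1652.6 bases. Per length of the longest coding transcript it was 11.9 with PBS and 11.6 with oxalate. Per length of all exons joined it was 7.38 and 7.21. In estimated reads Araf stood 3.48-fold above Braf with PBS and 3.40-fold above it with oxalate. Reads are not divided by length, so this is not a ratio of transcript levels.

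Map2k1 and Map2k2 encode MEK1 and MEK2, which phosphorylate ERK on a threonine and a tyrosine. Map2k1 (ENSMUSG00000004936, chromosome 9, 64185770 to 64253631, minus strand) had 22.97 FPKM with PBS and 22.38 FPKM with oxalate, and an interval of the log2 ratio from -0.12 to 0.044. It is the 1 gene among the 7 with a single coding transcript, of 2436 bases, against 3391 bases for all its exons joined. Map2k2 (ENSMUSG00000035027, chromosome 10, 81105915 to 81133975, plus strand) had 105.02 FPKM with PBS and 97.63 FPKM with oxalate. Its counting interval, from -0.16 to -0.054 on 8221 and 4923 estimated reads, lay below 0, and 42.0% of expressed genes had a larger change.

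Both MEK genes were lower with oxalate in value, by 2.57% for Map2k1 in a range that includes no change, and by 7.04% for Map2k2. Map2k2 held 82.1% of the summed FPKM of the pair with PBS (81.4% to 82.7%) and 81.4% with oxalate (80.5% to 82.1%). The intervals of the 2 libraries overlap. Per length, Map2k2 was 4.57-fold above Map2k1 with PBS and 4.36-fold above it with oxalate.

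**Figure D3:**
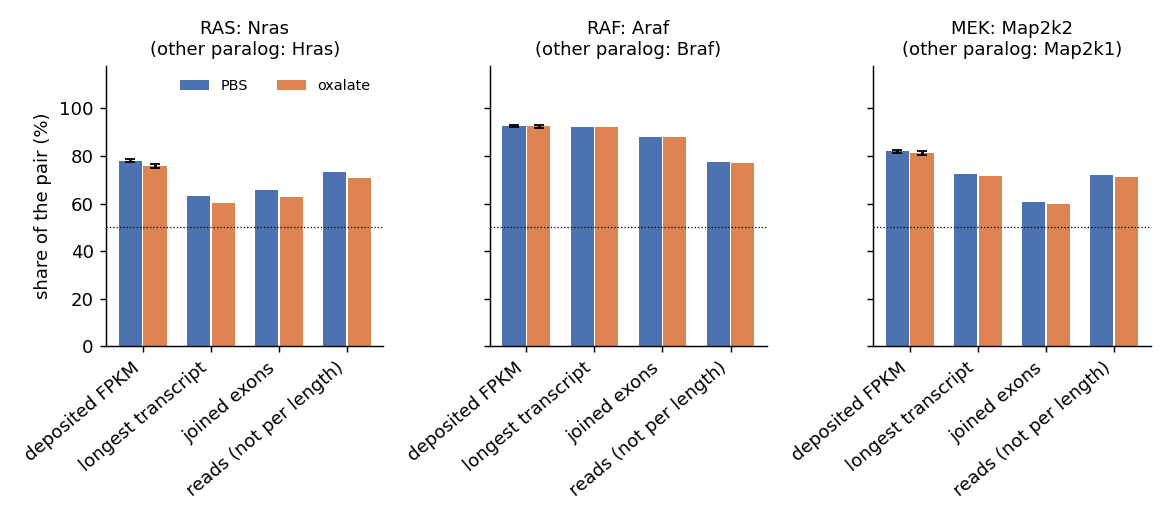
Each panel gives the share (%) that the higher paralog holds of the summed level of its pair in the PBS and oxalate libraries, with 95% counting intervals on the deposited values. The other bars recompute the share per length of the longest coding transcript, per length of all exons joined, and in estimated reads. Every bar is above the dotted line at 50%, with 59.7% the lowest and 92.7% the highest.

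Mapk3 (ENSMUSG00000063065, chromosome 7, 126759601 to 126765819, plus strand) encodes ERK1, the kinase at the end of the cascade. It had 92.33 FPKM with PBS and 105.01 FPKM with oxalate, the largest change among the 7 genes. The log2 change was 0.18, and the counting interval ran from 0.13 to 0.24 on 6726 and 4928 estimated reads. A larger change in either direction was found for 19.7% of expressed genes, and for 12.1% of the 4566 genes whose mean reached 20 FPKM, a limit chosen after the values were seen. Under that limit the share with a larger change was 19.2% for Hras and 33.7% for Map2k2. As Mapk3 was the 1 gene taken for the ERK tier, no share was computed there.

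The order of the deposited levels was Nras, Map2k2, Mapk3, Araf, Hras, Map2k1 and Braf with PBS. With oxalate Mapk3 and Map2k2 changed places, and the rest of the order was the same. Map2k2 was 1.14-fold above Mapk3 with PBS (counting interval 1.1 to 1.17), and Mapk3 was 1.08-fold above Map2k2 with oxalate (1.03 to 1.12). For each of the other neighbours in the order the counting interval of the ratio lay above 1, with the smallest ratio at 1.17 between Nras and Mapk3 with oxalate. How firmly neighbours differ beyond counting error is unknown without replicates.

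Lengths bear on that order. Low FPKM values of short genes that have more than 1 coding transcript came out as whole reads, within 0.2, for 97.6% of 42 PBS values when the mean length of the coding transcripts was used, against 45.2% with the longest and 52.4% with all exons joined. For oxalate these shares were 91.9%, 43.2% and 32.4% of 37 values. The coding transcripts of Nras run from 276 to 4470 bases with a mean of 1401.6, so that its level falls the most if the longest is used. Per length of the longest coding transcript, Mapk3 was highest with 66.0 FPKM for PBS and 75.0 FPKM for oxalate, Map2k2 had 60.3 and 56.1 FPKM, and Nras had 39.2 and 38.5 FPKM. Per length of all exons joined, Mapk3 was highest again with 52.6 and 59.8 FPKM, followed by Nras with 32.9 and 32.3 FPKM. Braf was lowest under each of these lengths, and none of the pairs changed its higher paralog.

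GC content differed among the genes and moved with the change across the table. Over 10 bins of GC content, the median log2 change of expressed genes went from -0.068 in the lowest bin to 0.029 in the highest. Hras (57.1% GC), Mapk3 (56.9%) and Map2k2 (59.2%), the genes whose counting interval left out no change, are the 3 with over 55% GC. The medians of their bins were 0.027, 0.027 and 0.029. Taken relative to its bin, the change was 0.12 for Hras, 0.16 for Mapk3 and -0.13 for Map2k2, so that each was on the same side of 0. The other genes had 43.5% GC (Braf), 44.9% (Nras), 49.7% (Araf) and 51.2% (Map2k1), and lay between -0.058 and 0.096 relative to their bins. The part of GC content in these values was not tested further.

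**Figure D4:**
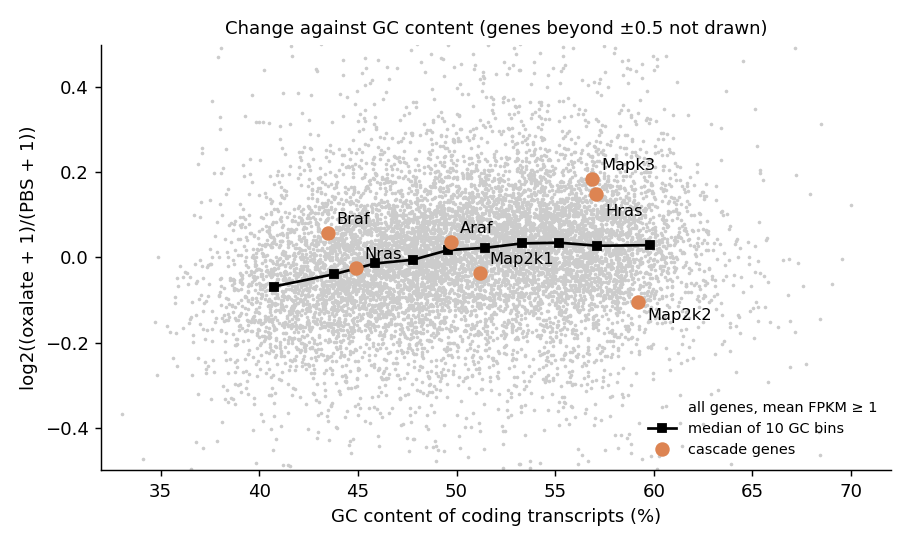
Horizontal, mean GC content (%) of the coding transcripts. Vertical, log2((oxalate + 1)/(PBS + 1)). Grey points are the expressed genes, black squares the medians of 10 GC bins from -0.068 to 0.035, and orange points the cascade genes. Mapk3 and Hras lie above the black line and Map2k2 below it at similar GC content.

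Around the core, 128 further genes of the pathway were read in 9 lists by role, of which 127 were in the table (Spry3 was not) and 105 were expressed by the limit of 1 FPKM. With oxalate 49 of the 105 were higher and 56 lower, at a median log2 change of -0.0093, and 0 changed 2-fold in either direction. At 1.2-fold 5 were raised and 5 were lowered, which is 5 of 105 on each side beside the 4.75% and 5.19% of expressed genes. At 1.5-fold 1 of 105 was raised (Golga7) and 1 of 105 was lowered (Paqr3), beside 0.935% and 1.05% of expressed genes. At 2-fold 0.292% of expressed genes were raised and 0.36% lowered. The counts at both folds are thus close to the background. In each list the highest gene is that with the highest mean FPKM, and the largest difference upward or downward is that of the log2 change.

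Upstream of RAS, adaptors and exchange factors link receptors to the GTPase. Here 10 of 16 genes were expressed, with 3 higher, 7 lower and a median of -0.017. Rapgef1, an exchange factor for the RAS-related RAP proteins, had the highest mean level, with 49.30 FPKM for PBS and 53.44 FPKM for oxalate. Ptpn11, which encodes the phosphatase SHP2 that promotes RAS activation, went from 51.33 to 35.63 FPKM, a log2 change of -0.51 with a counting interval from -0.57 to -0.49. Sos2, an exchange factor for RAS, went the other way from 8.71 to 11.12 FPKM (0.32). Shc1, an adaptor named after its values were seen, had 50.12 and 38.87 FPKM (-0.36).

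RAS is switched off by GTPase-activating proteins. In this list 8 of 10 genes were expressed, 5 were higher and 3 lower, and the median was 0.052. None was past 1.2-fold, and 90.1% of expressed genes were not either. The highest was Rasa3 with 28.42 and 30.22 FPKM. Rasa2 had the largest log2 difference downward, from 4.60 to 4.12 FPKM.

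RAS proteins need lipid groups to reach the membrane. The list of processing and turnover holds enzymes for this step and other genes for the handling or turnover of RAS. All 10 of its genes were expressed. With oxalate 7 were higher and 3 lower, and the median was 0.039. With the pseudocount, the largest log2 change among all 105 genes was that of Golga7, at 0.91 with an interval of the ratio from 0.87 to 0.99. Golga7 had 35.56 FPKM with PBS and 67.66 FPKM with oxalate. Its product is the partner of the palmitoyltransferase encoded by Zdhhc9, and together they add palmitate to H-Ras and N-Ras. Zdhhc9, named after its values were seen, had 11.10 FPKM with PBS and 15.85 FPKM with oxalate (0.48). Both genes have 2 coding transcripts. Rce1, a protease that trims prenylated RAS, had the largest log2 difference downward, from 21.37 to 19.24 FPKM.

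Of the RAS-related GTPases, 12 of 16 were expressed, with 3 higher, 9 lower and a median of -0.047. As for 90.1% of expressed genes, their changes stayed within 1.2-fold. Rap1b was the highest with 69.23 and 70.19 FPKM. Rheb, which activates the kinase mTORC1, had the largest log2 difference downward, from 27.63 to 23.94 FPKM, and Rras the largest upward, from 39.77 to 41.17 FPKM.

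Partners and scaffolds of RAF had 19 of 22 genes expressed, with 6 higher, 13 lower and a median of -0.031. Hsp90ab1, a chaperone of RAF kinases, was the highest with 5922.80 FPKM for PBS and 5920.08 FPKM for oxalate. Paqr3, known to hold RAF at the Golgi, went from 2.32 to 1.19 FPKM on 203 and 67 estimated reads. Its log2 change was -0.60 with the pseudocount and -0.96 without it (interval of the ratio -1.39 to -0.56). Shoc2, a scaffold that helps to activate RAF and was named after its values were seen, went from 26.00 to 19.37 FPKM (-0.41). Iqgap1, a scaffold for the cascade, went from 198.27 to 222.46 FPKM (0.17).

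Kinases related to the ERK branch had 6 of 9 genes expressed, with 4 higher and 2 lower, and the median of 0.14 was the highest of the lists. Mapk7, which encodes ERK5, had 9.44 FPKM with PBS and 13.40 FPKM with oxalate (0.46, interval of the ratio 0.39 to 0.62). Map3k8, a kinase that can activate MEK and was named after its values were seen, had 2.72 and 3.67 FPKM (0.33). Mapk6, the highest of the list, had 59.38 and 55.68 FPKM, and Map3k2 had the largest log2 difference downward, from 2.77 to 2.52 FPKM.

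Downstream of ERK, 0 of 13 feedback inhibitors and 0 of 13 substrates differed by 1.2-fold. With 4.75% of expressed genes raised and 5.19% lowered at that fold, these counts are close to the background. Inhibitors had a median of 0.018, with 8 higher and 5 lower. Dusp7, an ERK phosphatase, was the highest with 128.87 and 123.63 FPKM, Dusp6, another ERK phosphatase, had the largest log2 difference downward from 25.83 to 23.94 FPKM, and Lrig1 the largest upward from 31.18 to 35.16 FPKM. Substrates had a median of 0.028, also with 8 higher and 5 lower. Elk3, an ETS-family factor, was the highest with 162.95 and 161.67 FPKM, Mknk1 had 13.47 and 15.39 FPKM, and Ets1 had 45.48 and 40.52 FPKM.

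Of 18 transcripts known to respond to ERK activity, 14 were expressed, with 5 higher and 9 lower and a median of -0.055, the lowest of the lists. Egr1, Egr2, Egr3 and Ereg did not reach the limit of 1 FPKM. Below it, Egr1 had 0.75 FPKM with PBS and 0.57 FPKM with oxalate, Egr2 0.63 and 0.53 FPKM, and Egr3 0.64 and 0.37 FPKM. Ereg was listed at 0 in both libraries. The list is not a full set of transcripts that respond to ERK. Ier3 was the highest with 451.65 and 458.82 FPKM. Etv5, an ETS-family factor, had 15.84 FPKM with PBS and 11.70 FPKM with oxalate (-0.41, interval of the ratio -0.54 to -0.34) and was the 1 gene of the list past 1.2-fold. Phlda2 had the largest log2 difference upward, from 68.32 to 75.06 FPKM.

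**Figure D5:**
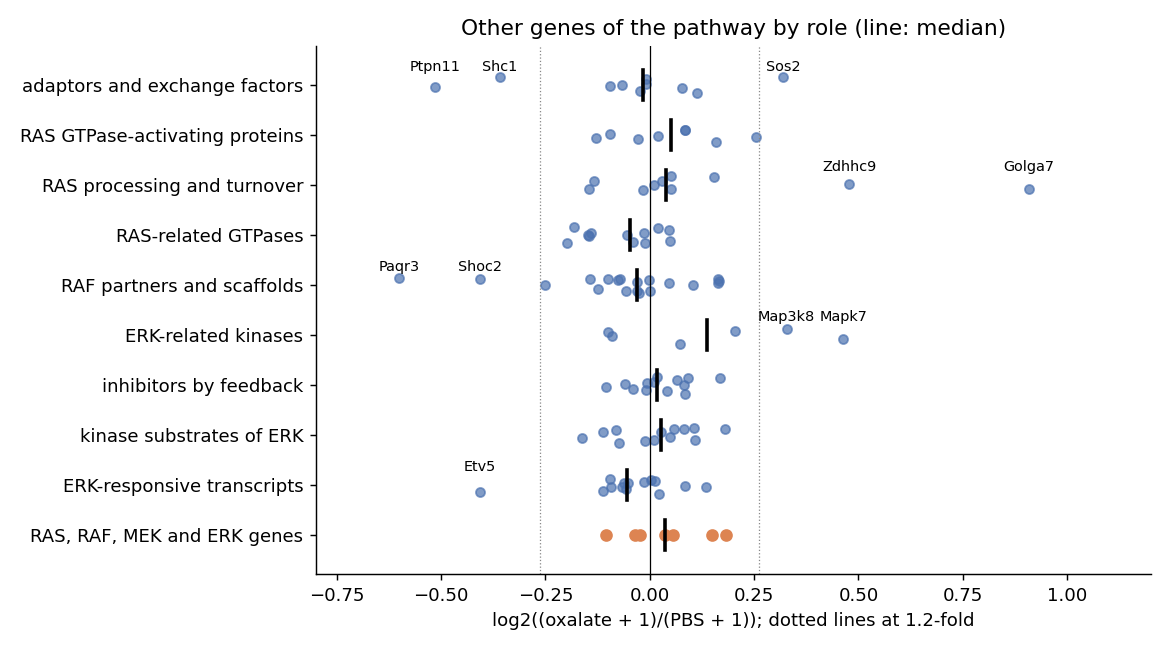
Each point is 1 expressed gene, placed by log2((oxalate + 1)/(PBS + 1)) on the horizontal axis and by list on the vertical axis (scatter within a row has no meaning). Black lines are medians from -0.055 to 0.14, dotted lines mark 1.2-fold, and the genes past them are named. The 7 cascade genes in the lowest row lie between the dotted lines.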

How the data were processed

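Total RNA of 4T1 cells was extracted with Trizol, poly(A)-selected on oligo(dT) beads, reverse transcribed from random primers and read on an Illumina HiSeq2500. The submitters' processing notes name Bowtie2 2.2.8 and TopHat2 2.1.1. The quantifier, genome build, annotation and filters are not given in the sources used here. The authors deposited FPKM rounded to 2 decimals. Symbols (21848 of 21911 identifiers), lengths, GC content and positions came from GENCODE M21 (GRCm38). Reads were estimated as FPKM times the mean coding transcript length, divided by the step of 0.01765 (PBS) or 0.0274 (oxalate) FPKM per kb on which low values of genes with 1 transcript fell. Intervals cover counting error only. Genes outside the core were named by a rule (highest level, largest difference each way and all past 1.5-fold in each list); other names are marked, and 1 gene that the rule covers is not reported here. The genes and lists were chosen with earlier results of these data known. Coding sequences were aligned globally with Biopython 1.88. Scripts were tested on simulated data and ran under scipy 1.17.1, pandas 2.3.3, numpy 2.4.6, matplotlib 3.10.9 and Python 3.11.15. Alternatives were pseudocounts, scalings, a GC correction, filters, thresholds and transcript lengths.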

Additional observations from a re-analysis of the deposited data

How the results depend on the processing

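No paired analysis was possible because PBS and oxalate were sequenced once each, and for the same reason no replicate could be left out. The log2 changes of the 7 genes kept their direction and stayed within their counting intervals under pseudocounts of 0.1 and 0.001, rescaling to a median ratio of 1, the TPM scale and the GC correction. Their median of 0.036 ran from 0.019 (GC correction) to 0.057 (TPM scale). The number of the 7 genes changed was 0 under each alternative run. The background of 67 genes changed 2-fold became 204 at 1.5-fold.

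Shares within a pair moved with length, by the construction of these alternatives. Nras went from 78.1% to 63.2% (longest coding transcript), 65.5% (all exons joined) and 73.1% (estimated reads) with PBS, and from 76.0% to 60.3%, 62.7% and 70.6% with oxalate. Araf went from 92.7% to 92.2%, 88.1% and 77.7% with PBS, and from 92.5% to 87.8% (all exons joined) and 77.3% (estimated reads) with oxalate. Map2k2 went from 82.1% to 72.4%, 60.8% and 72.2% with PBS, and from 81.4% to 71.5%, 59.7% and 71.2% with oxalate. The median of adaptors and exchange factors went from -0.017 to 0 over all genes listed, and the medians of the other lists kept their sign under the alternatives run. Depth limits Braf most, with 914 estimated reads with oxalate.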
